A study of Homo sapiens with 2 samples.

Results

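Wide peaks of LSD2, here those spanning from 400 to under 1000 bp, numbered 28879 of the 370863 distinct intervals in a chromatin immunoprecipitation and sequencing (ChIP-seq) peak list from HepG2 cells. They were chosen by width alone, after identical lines had been counted once, and were set against the 175326 narrow intervals of 140 to under 170 bp. The list rests on 1 LSD2 ChIP library set against 1 library of input, which is sheared chromatin taken without precipitation. Both were made from HepG2, an aneuploid human line from a liver tumour, grown without treatment in medium with 25 mM glucose and 10% serum, and the ChIP used a rabbit polyclonal antibody against residues 26 to 822 of recombinant human LSD2. The deposited values were hg19 positions only. No height or p-value came with a peak, and how deeply both libraries were sequenced is unknown here. With 1 library a group there was no replicate error, and width comes from the same contrast as the positions, so the values below are descriptions with no test. Shares carry 95% Wilson intervals, which cover counting error only and treat neighbouring peaks as independent.

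LSD2, also named KDM1B, is a flavin-dependent demethylase that removes methyl groups from lysine 4 of histone H3. It is known for binding along the bodies of transcribed genes together with its cofactor NPAC (GLYR1), and for its part in setting up maternal imprints in oocytes. In HepG2 cells it has been studied for its control of lipid metabolism. A peak width is the length over which ChIP reads passed the caller's threshold against input, so a wide peak is a longer passing stretch and not necessarily a stronger one. No genes are named for the peaks below, since a gene annotation or sequence of hg19 was not used here.

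Wide peaks were a minority of intervals and covered a larger share of the sequence under peaks. They made up 7.79% of distinct intervals (7.70% to 7.87%) and covered 14.7 Mb, or 16.9% of all bases under peaks. Narrow peaks made up 47.3% of intervals (47.1% to 47.4%) and covered 26.8 Mb, or 30.9% of those bases. The typical wide peak was 477 bp across, with a middle range from 424 to 558 bp and a mean of 509 ± 109 bp (SD over peaks). The typical narrow peak was 152 bp.

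Most members lay near the lower limit, and the limit fell on a steep part of the width distribution. Bins of 10 bp held 6122 peaks from 380 bp and 6071 from 390 bp, just outside the class. Just inside it they held 3935 from 400 bp, 2410 from 410 bp, 1777 from 420 bp and 1532 from 430 bp. There were 494 peaks of exactly 400 bp and 490 that were 1 bp narrower, so those adjacent widths showed no step. Over bins of 10 bp, however, the nearly level run of counts from 200 bp ended about the limit. The share followed by a wide peak also changed across it, from 8.45% at 350 to under 400 bp to 10.8% at 400 to under 450 bp. Widths of 400 to under 450 bp accounted for 38.2% of members, whereas 4775 members, or 16.5%, were 600 bp or wider. A lower limit of 500 bp would have left 12159 members, or 3.28% of intervals. At the upper limit numbers were small, with 29 peaks in the last 10 bp below it and 2 of exactly 1000 bp, and 371 peaks in all were wider than the class.

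**Figure D1:**
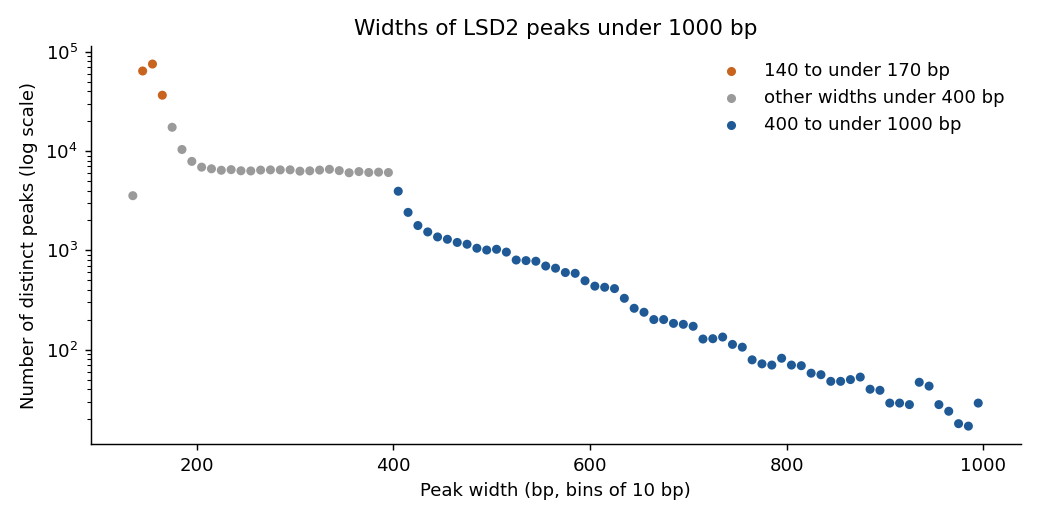
Number of distinct LSD2 peaks (log scale) against width in bins of 10 bp, with colours for the 3 width classes. Counts are flat from 200 bp up to the bin of 6071 peaks at 390 bp, fall to 2410 in the bin from 410 bp, and then decline gradually to 29 in the bin from 990 bp.

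The 5 widest members, the last of them tied in width with others, are given by position. All 5 were within 3 bp of the upper limit. The first ran from 19443798 to 19444796 on chromosome 1 (hg19, counted from 1), directly before another wide peak. A second, equally wide, lay on chromosome 14 from 31086966 to 31087964 and was listed on 2 lines. The next pair, also equal in width, were on chromosome 17 (35892224 to 35893221) and chromosome 20 (34297227 to 34298224). The peak on chromosome 20 sat between neighbours that were both 1000 bp or wider. The last, on chromosome 2 from 75742922 to 75743918, was 1 of 4 peaks of equal width and was taken first by position. It had a narrow peak before it and one of intermediate width after it.

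Wide peaks were distributed over chromosomes much less evenly than narrow ones. Among autosomes the wide share of a chromosome's peaks ran from 5.63% to 12.1%, a ratio of 2.15. The narrow share ran from 42.4% to 51.5%, a ratio of 1.21. Per Mb of sequence between the first and last peak of a chromosome, leaving out peak-free stretches over 500 kb, wide peaks ran from 5.32 to 18.0 and narrow peaks from 45.3 to 74.98.

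Chromosomes 17, 20 and 16 had the highest wide shares. Chromosome 17 held 1332 wide peaks, 12.1% of its peaks (11.5% to 12.7%), which is 1.55 times the share over the genome. Its narrow peaks, at 60.8 per Mb, stood at 0.998 times the autosomal median, while its wide peaks, at 17.1 per Mb, stood at 1.94 times theirs. The chromosome was thus ordinary in narrow peaks and rich in wide ones. Chromosome 20 held 920 wide peaks (10.6%, 9.93% to 11.2%) and chromosome 16 held 1051 (10.2%, 9.67% to 10.8%). The intervals of chromosomes 20 and 16 overlapped each other, and neither overlapped that of chromosome 17. Both also overlapped those of chromosomes 2 (10.2%, 9.91% to 10.5%), 14 and 22, so only chromosome 17 stood apart at the high end.

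The lowest wide shares were on chromosomes X, 13 and 4. Chromosome X held 381 wide peaks, 3.91% of its peaks (3.55% to 4.32%), and its wide density of 2.51 per Mb was 0.285 times the autosomal median. Its narrow density of 37.2 per Mb was 0.611 times the median of 61.0, so the deficit was larger for wide than for narrow peaks. On chromosome 13 the wide share was 5.63% (5.23% to 6.06%) and on chromosome 4 it was 5.87% (5.58% to 6.17%). Both had slightly more narrow peaks per Mb than the autosomal median, at 1.03 and 1.05 times, and fewer wide ones, at 0.791 and 0.868 times. Their intervals of wide share overlapped each other and that of chromosome 19 (6.04%, 5.41% to 6.74%), so only chromosome X stood apart at the low end.

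By wide share the 24 chromosomes can be divided into an upper group of 8 and a lower group of 16. The division was placed at a break after the values were seen. A break of similar size lay between chromosome X (3.91%) and chromosome 13 (5.63%). Chromosomes 17, 20, 16, 2, 14, 22, 6 and 10 all had wide shares of at least 8.99%, and the next highest, chromosome 1, had 7.25% (6.95% to 7.56%). The 8 held 46.4% of wide peaks and 33.5% of narrow peaks on 30.7% of the searched sequence. Chromosome 2 contributed 4306 wide peaks, 14.9% of all members, and had the highest wide density, at 18.0 per Mb. Wide share rose only loosely with peak density, with a Spearman coefficient of 0.42 across the 22 autosomes, a description over chromosomes that share 1 library pair. The copy number of the chromosomes in these cells was not measured here, and differences in the amount of DNA cannot be told apart from differences in LSD2 signal.

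**Figure D2:**
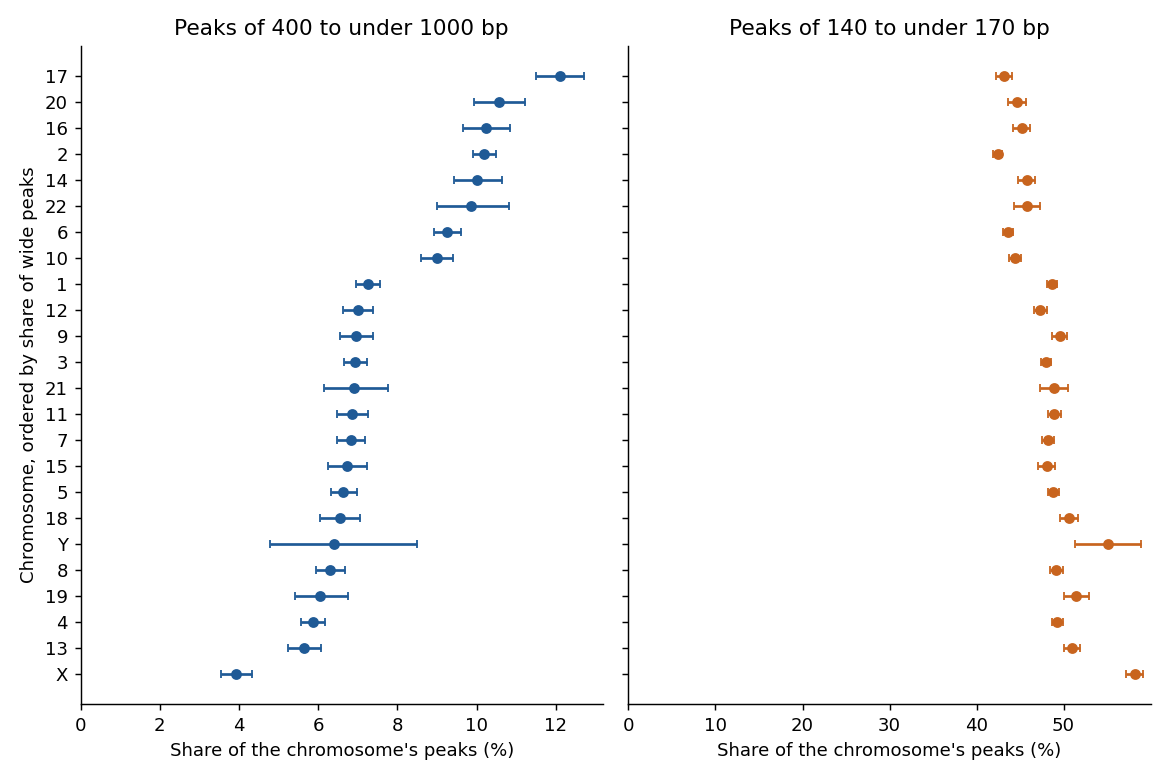
Share of each chromosome's distinct peaks that are wide (left) and narrow (right), in percent, with 95% Wilson intervals as bars and chromosomes ordered by wide share. Wide shares run from 3.91% on chromosome X to 12.1% on chromosome 17, with a break between chromosome 10 (8.99%) and chromosome 1 (7.25%).

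Within some chromosomes the wide share changed between long segments. On most chromosomes, however, the intervals before and after the longest peak-free stretch overlapped, and those given here are examples. On chromosome 17, the sequence before the longest peak-free stretch of the chromosome had 181 wide among 2424 peaks, or 7.47% (6.49% to 8.58%). The sequence after it had 1151 among 8581, or 13.4% (12.7% to 14.2%), which is 1.80 times as high. On chromosome 16 the intervals of both sides overlapped, with 10.0% before (9.11% to 10.99%) and 10.4% after (9.65% to 11.2%). Chromosome 20 had 9.61% before (8.76% to 10.5%) and 11.5% after (10.6% to 12.4%), and chromosome 6 had 10.2% (9.58% to 10.8%) and 8.76% (8.36% to 9.18%). Chromosome 9 had 5.79% before (5.18% to 6.47%) and 7.64% after (7.09% to 8.22%). Chromosome 21 had few peaks before its longest stretch, and 46 of those 219 were wide, or 21.0% (16.1% to 26.9%), compared with 6.03% after it (5.29% to 6.86%). Few peaks also lay after the longest stretch of chromosome Y, with 8 wide among 17, and of chromosome 14, with none wide among 76.

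Chromosome 14 also changed along its length, at a position that is not a peak-free stretch. Before 44 Mb, 828 of 5331 peaks were wide, or 15.5% (14.6% to 16.5%), and after it 137 of 4298 were, or 3.19% (2.70% to 3.76%). Per Mb of searched sequence, wide peaks fell from 33.1 to 2.17 and narrow peaks from 77.0 to 39.2. Narrow peaks thus made up a larger share after 44 Mb, 57.8% against 36.1%, although they too were sparser there. The position of 44 Mb was taken from earlier results on these data, and no such position was sought on other chromosomes here. The wide share over the whole chromosome, 10.0%, therefore averages a part above every chromosome mean and a part below every one.

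Over fixed windows of 1 Mb, wide peaks were spread less evenly than narrow peaks. The 2911 windows with at least 1 peak held 9.92 ± 9.17 wide peaks (SD over windows), with a median of 7 and a middle range of 4 to 13. They held 60.2 ± 18.7 narrow peaks, with a median of 62 and a middle range of 50 to 73. The 292 windows richest in wide peaks, 10% of all, contained 31.1% of wide peaks, and the 292 richest in narrow peaks contained 15.0% of those. The variance over the mean was 8.48 for wide and 5.79 for narrow peaks. Because sparse counts scatter more, the spread beyond counting noise was also computed, as the square root of the variance minus the mean, over the mean. It was 86.8% of the mean for wide peaks and 28.2% for narrow peaks.

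No wide peak was found in 99 windows, or 3.40%, and these were mostly poor in peaks of any width, with a median total of 52. Only 14 of them held 50 or more narrow peaks, and the highest narrow count beside no wide peak was 70. At the other end, 125 windows held 30 or more wide peaks and accounted for 17.1% of the class.

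Windows with more narrow peaks also held more wide ones, and the wide count climbed faster. The 2870 windows with at least 20 peaks were ranked by narrow count and divided into 5 groups of 574. Narrow peaks averaged 35.1 in the lowest group and 84.4 in the highest, a ratio of 2.40. Wide peaks averaged 4.28 ± 4.51 and 17.9 ± 10.8 (SD over windows), a ratio of 4.19. As a share of all peaks, wide peaks were at 6.20% and 6.12% in the lower 2 groups, then 6.98%, 8.18% and 9.54%. Spearman's coefficient between wide and narrow counts was 0.64 over the 2911 windows, which share the same 2 libraries and are not independent.

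**Figure D3:**
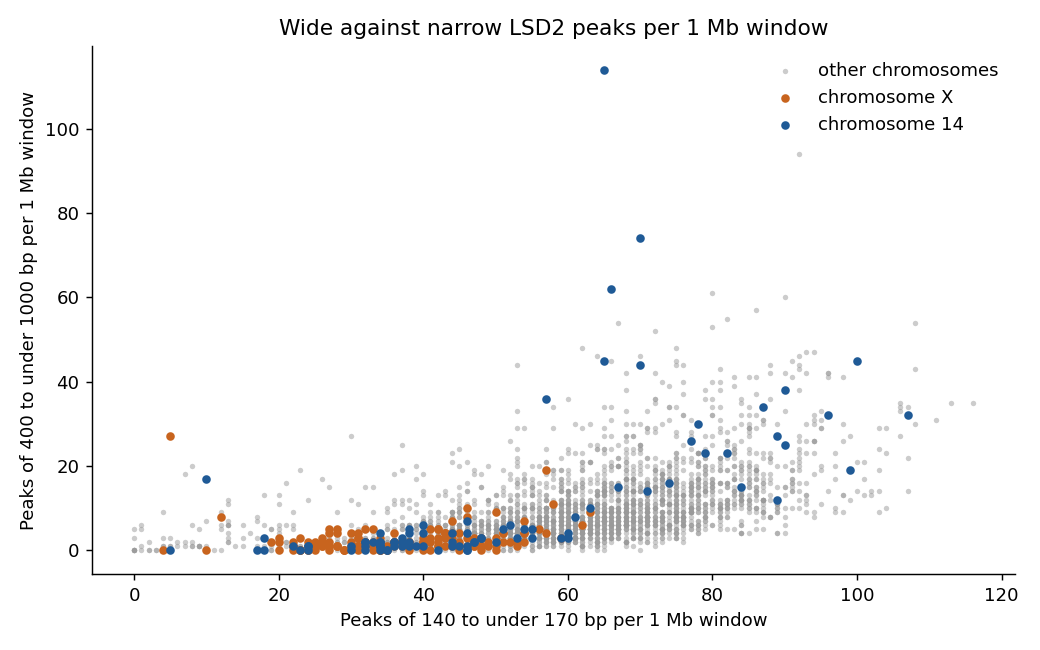
Wide peaks against narrow peaks in each of 2911 windows of 1 Mb, 1 point a window, with chromosomes 14 and X in colour. Wide counts rise with narrow counts but scatter widely, and the window with 114 wide peaks on chromosome 14 has an ordinary 65 narrow ones.

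The 10 windows with the most wide peaks held 685 of them, 2.37% of the class, and 0.460% of narrow peaks. Chromosome 14 from 31000001 to 32000000 came first, with 114 wide among 322 peaks (35.4%) and 12 more of 1000 bp or wider. It had 65 narrow peaks, a count that ranked 1192nd among the windows. Chromosome 2 from 216000001 to 217000000 had 94 wide among 333 peaks (28.2%) and 92 narrow ones. Chromosome 14 appeared again from 35000001 with 74 wide among 246 peaks (30.1%), and from 39000001 with 62 among 244 (25.4%) and a median width of 566.5 bp. The narrow counts of all 3 windows on chromosome 14 fell inside the middle range of 50 to 73.

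The other windows in this list lay on 5 chromosomes. Chromosome 8 from 17000001 held 61 wide peaks, chromosome 6 from 144000001 held 60, chromosome 2 from 54000001 held 57 and chromosome 10 from 70000001 held 55. Chromosome 6 from 119000001 and chromosome 17 from 57000001 held 54 each. The window on chromosome 6 from 119000001 also had the highest narrow count of the 10, its 108 ranking 4th among all windows, whereas the one on chromosome 17 had 67 and ranked 1063rd. Wide shares in these 6 windows ran from 18.2% to 23.0%.

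In 12 windows wide peaks outnumbered narrow ones, and 7 of these held at least 10 wide peaks. The first 3 were those of chromosome 14 from 31000001, chromosome 2 from 216000001 and chromosome 14 from 35000001. The other 4 were poor in peaks and were singled out after their values were seen. Chromosome X from 61000001 to 62000000 had 27 wide and 5 narrow peaks among 52, although the median window of chromosome X had 2 wide peaks. Chromosome 7 from 61000001 had 20 wide and 8 narrow, chromosome 21 from 11000001 had 18 and 7, and chromosome 14 from 19000001 had 17 and 10.

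Wide peaks lay close to peak-free stretches more often than narrow peaks did. Within 1 Mb of one of the 24 stretches longer than 1 Mb there were 509 wide peaks, 1.76% of the class (1.62% to 1.92%). The narrow share was 0.923% (0.879% to 0.969%), and that of peaks of 1000 bp or more was 12.7% (9.66% to 16.4%). Mappability near such stretches was not analysed here.

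Wide peaks had nearer neighbours than narrow peaks. The gap to the next peak of any width had a median of 2887 bp after a wide peak and 4740 bp after a narrow one. Shorter gaps with greater width were not particular to the class. The median was 4236 bp after peaks of 170 to under 200 bp, 3758 bp at 350 to under 400 bp and 1311 bp at 1000 bp or more. The gap was under 1 kb after 24.8% of wide peaks (24.3% to 25.3%) and after 15.0% of narrow peaks (14.9% to 15.2%). Gaps under 200 bp followed 6.17% of wide peaks (5.90% to 6.45%) and 1.94% of narrow ones (1.873% to 2.002%).

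The nearest wide peak to a wide peak was at a median distance of 15.6 kb edge to edge, with a middle range of 4.17 to 48.9 kb. From a narrow peak the nearest wide peak was at a median of 40.3 kb. Another wide peak lay within 10 kb of 40.1% of wide peaks (39.6% to 40.7%) and of 19.7% of narrow peaks (19.5% to 19.9%). Distances to narrow peaks differed little between the classes, with medians of 4.32 kb from a wide peak and 4.95 kb from a narrow peak. The classes therefore differed more in their distance to wide peaks than in their distance to narrow ones.

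The class of the next peak was read from the order of peaks along the chromosome, whatever the distance between them. After a wide peak, 13.0% of next peaks were wide (12.6% to 13.4%), compared with 6.53% after a narrow peak (6.41% to 6.64%), a ratio of 1.99. On all 24 chromosomes the ratio was above 1. It was lowest, at 1.51, on chromosome 19 and highest, at 4.03, on chromosome Y, which had only 43 wide peaks. Regions rich in wide peaks can be allowed for in part by counting within windows of 1 Mb. Rich regions smaller than a window are not allowed for in this way. Among the other peaks of its own 1 Mb window a wide peak had on average 9.83% wide ones, and the adjacent peak was wide 1.32 times as often as that. For narrow peaks the corresponding values were 7.30% in the window and 0.894 times. With a lower limit of 500 bp, 8.26% of next peaks after a member were members too, against 2.59% after a narrow peak, a ratio of 3.18.

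The tendency faded with the number of peaks between. At 2 peaks further along, 12.4% were wide after a wide peak, and 10 further along 11.3% were (10.9% to 11.7%). At 50 peaks the share was 9.29% (8.96% to 9.63%) and at 500 it was 8.34% (8.03% to 8.67%), compared with 7.79% in the whole list. After narrow peaks it rose from 6.53% for the next peak to 7.38% at 50 and 7.62% at 500.

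Measured as density at a given distance, wide peaks were denser around wide peaks than on average, over long distances. Within 500 bp of a wide peak there were 55.7 wide peaks per Mb, 5.52 times the mean wide density of 10.1 per Mb. The ratio was 4.33 at 1 to 2 kb, 3.27 at 10 to 20 kb, 2.06 at 50 to 100 kb and 1.33 at 500 kb to 1 Mb. Set against the density of the same chromosome rather than the genome, it was 4.78 within 500 bp, 1.78 at 50 to 100 kb and 1.15 at 500 kb to 1 Mb. Narrow peaks around narrow peaks reached 1.29 times their mean density at 500 bp to 1 kb, and 1.08 at 50 to 100 kb. Narrow peaks around wide ones lay between, at 1.44 within 500 bp and 1.18 at 50 to 100 kb.

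**Figure D4:**
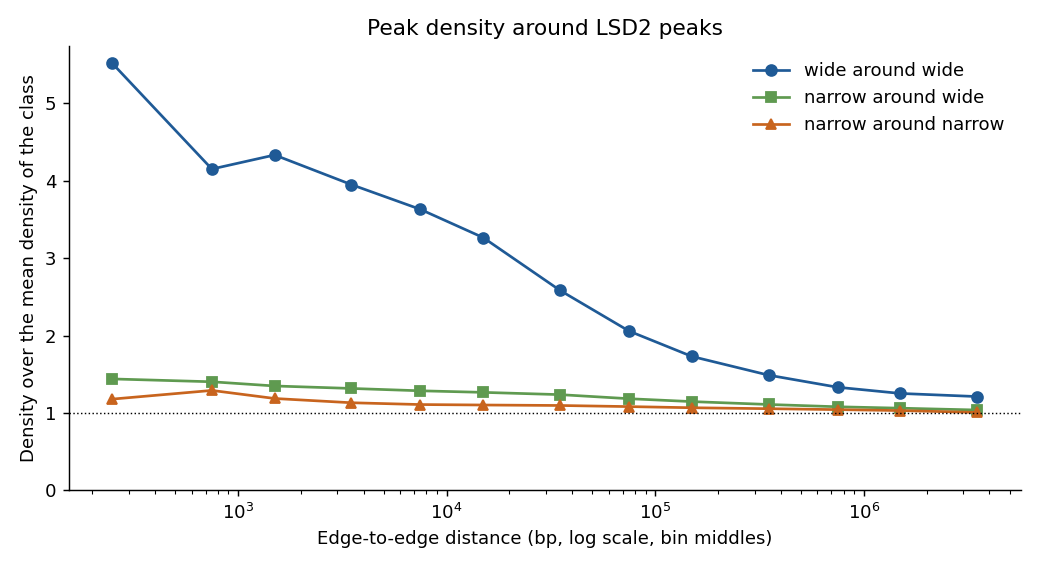
Density of peaks around wide or narrow peaks, as a multiple of the mean density of the class counted, against edge-to-edge distance on a log scale. The curve of wide around wide peaks falls from 5.52 within 500 bp to 1.33 at 500 kb to 1 Mb, while both curves for narrow peaks stay below 1.5 throughout.

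Most wide peaks nevertheless stood singly among narrower ones. A class of 7.79% of intervals would mostly stand singly in a random order too, so this alone says little about spacing. No wide peak was directly next to 76.6% of members on either side, 20.8% had 1 and 2.63% had 2. A narrow peak bordered 44.9% of wide peaks on 1 side and 17.6% on both. The next peak was narrow after 40.4% of wide peaks (39.9% to 41.0%), below the narrow share of 47.3% in the whole list. Unbroken successions of 2 or more wide peaks numbered 2996 and held 6751 members, or 23.4%. Of these, 2452 were pairs and 402 were triplets, and 45 had 5 or more members.

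The longest succession had 10 members on chromosome X, from 58557317 to 61694856, but it spanned a peak-free stretch of 3.12 Mb. It was made of 6 wide peaks within 8.95 kb before the stretch and 4 within 12.8 kb after it. The 6 were 411, 504, 811, 768, 707 and 919 bp wide, the 4 were 877, 587, 545 and 428 bp wide, and each was listed once. Among those not interrupted in this way, 4 had 7 members. On chromosome 20 from 10542588 to 10551105, 7 wide peaks covered 47.0% of 8.52 kb, with no gap over 1186 bp. On chromosome 2 from 21237581 to 21249555, 7 covered 32.8% of 11.98 kb, and on chromosome 1 from 160291248 to 160305331, 7 covered 31.5% of 14.1 kb and reached 982 bp in width. The fourth, on chromosome 2 from 89832456 to 89888573, was looser, at 6.72% of 56.1 kb.

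Successions of 6 members numbered 15, of which the first 5 by start position are given here. The densest of the 5 was on chromosome 21 from 9832714 to 9839100, where wide peaks covered 53.7% of 6.39 kb. On chromosome 20 from 17922047 to 17928851 they covered 43.7% of 6.81 kb, and on chromosome 1 from 24973987 to 24981163 they covered 44.1% of 7.18 kb. On chromosome 6 from 27636301 to 27656571 the 6 were spread over 20.3 kb, and on chromosome 14 from 31697995 to 31744944 over 47.0 kb with one gap of 24158 bp.

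Wider members had more wide neighbours. The next peak was wide after 10.8% of members of 400 to under 450 bp (10.2% to 11.4%), 13.2% of those of 500 to under 600 bp (12.45% to 13.996%) and 16.3% of those of 600 to under 700 bp (14.9% to 17.6%). It reached 26.4% among the 292 members of 900 to under 1000 bp (21.6% to 31.7%). Over the same widths a narrow next peak became less frequent, from 42.9% to 23.3%, and the median gap to the next peak shortened from 3240.5 to 1559.5 bp. Below the class the share was 6.53% after narrow peaks and 7.49% after those of 170 to under 200 bp. It was then nearly level, at 8.46% after peaks of 200 to under 250 bp and 8.45% after those of 350 to under 400 bp. Wide peaks also bordered the widest ones, since 36.7% of next peaks after a peak of 1000 bp or more were wide (31.9% to 41.7%).

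The list gave some intervals on several identical lines, and this was more frequent for wide than for narrow peaks. Of the members, 3587 or 12.4% (12.05% to 12.81%) were listed more than once, against 16900 or 9.64% (9.50% to 9.78%) of narrow peaks. Over all distinct intervals the share was 10.1%. It was higher still for peaks of 1000 bp or more, at 17.3% (13.7% to 21.4%), so the trait was not particular to the class. On exactly 2 lines were 3150 wide peaks, on 3 lines 365, on 4 lines 51, and on 5 or more 21. At least 3 lines were found for 1.51% of wide peaks (1.38% to 1.66%), 1.14% of narrow peaks (1.09% to 1.19%) and 1.20% of all intervals. Seen from the lines, wide peaks were 9.53% of the repeated intervals (9.24% to 9.83%) and 7.59% of those listed once (7.50% to 7.68%). No label or header says what the repeats stand for, so it is not known whether a line count is a property of a peak or of how the list was written out. The shares below describe the lines of the list in that sense only.

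The repeated share rose with width inside the class. It was 11.2% at 400 to under 450 bp (10.6% to 11.8%), 12.6% at 500 to under 600 bp (11.9% to 13.4%), 14.8% at 600 to under 700 bp (13.6% to 16.2%) and 17.1% at 900 to under 1000 bp (13.2% to 21.9%). Among peaks of 200 to under 400 bp it stayed between 10.3% and 10.5%. Over single wide peaks the relation was weak, with a Spearman coefficient of 0.039 between width and line count. The repeated share was higher for wide than for narrow peaks on 23 of 24 chromosomes. The exception was chromosome 19, where 23.6% of wide (19.1% to 28.7%) and 24.9% of narrow peaks (23.2% to 26.6%) were repeated. On most chromosomes, however, the intervals of both classes overlapped. They did so on chromosome 21, with 13.1% of wide (9.55% to 17.8%) and 13.0% of narrow peaks (11.6% to 14.7%). They stood apart on chromosome 20, for example, with 13.3% (11.2% to 15.6%) and 7.53% (6.74% to 8.40%). Repeats differed far more between chromosomes than between width classes, with wide shares from 7.54% on chromosome 4 to 23.6% on chromosome 19.

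**Figure D5:**
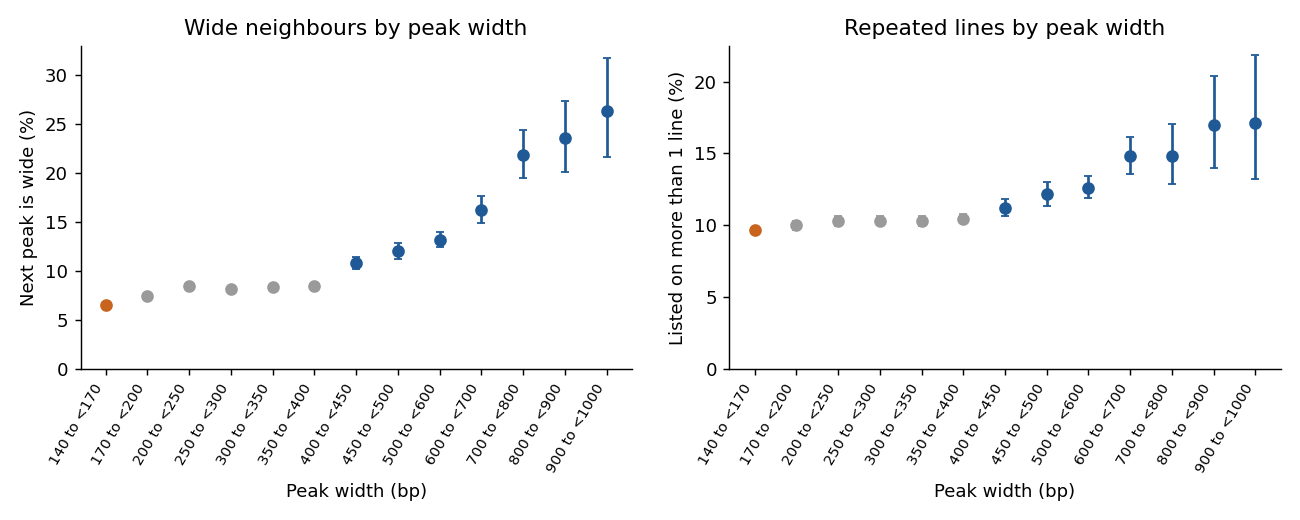
Share of peaks followed by a wide peak (left) and share listed on more than 1 line (right), in percent, by width, with 95% Wilson intervals as bars. Both are nearly flat from 200 to under 400 bp and climb within the wide class, to 26.4% and 17.1% at 900 to under 1000 bp.

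Repeated intervals came in blocks, which wide and narrow peaks shared. After a wide peak that was listed more than once, 72.1% of next peaks were repeated too (70.6% to 73.5%), compared with 4.06% after a wide peak listed once (3.83% to 4.31%). For narrow peaks these shares were 67.3% and 3.45%. Repeated wide peaks standing in a block of 5 or more successive repeated peaks numbered 1999, or 55.7%, and 386, or 10.8%, had no repeated peak next to them. The block with the most wide members lay on chromosome 6 from 128290498 to 128846373, with 24 wide among 167 successive repeated peaks over 556 kb. It was followed by blocks on chromosome 14 from 31804583 to 31929484, with 16 wide among 40, and from 35593548 to 35786830, with 15 wide among 62.

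The members listed most often were concentrated in one region of chromosome 5. A 432 bp peak from 140796313 to 140796744 was listed on 17 lines, one of 407 bp from 140363183 to 140363589 on 15, one of 420 bp from 140273437 to 140273856 on 13, and one of 502 bp from 140252559 to 140253060 on 12. These 4 lay within 544 kb, which held 75 peaks, of which 6 were wide, 47 were narrow and 34 were repeated. The fifth was a 465 bp peak on chromosome 11 from 62622984 to 62623448, on 11 lines. The highest line count of any narrow peak was 21.

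Repeats were somewhat more frequent in peak-rich windows, for both classes. When windows of 1 Mb were ranked by peak number and divided into 5 groups, the repeated share of wide peaks was 11.3% in the group with fewest peaks (9.90% to 12.9%) and 13.2% in that with most (12.6% to 13.8%). For narrow peaks the shares were 8.57% and 11.2%. The wide share was the higher of the pair in each of the 5 groups.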

How the data were processed

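ChIP-seq of LSD2 and 1 input library from HepG2 cells gave 1 deposited peak list. Per the labels' protocols, DNA fragments were size-selected at about 100 to 250 bp and amplified for 15 cycles, and the finished library DNA was about 170 to 220 bp long. The submitters' processing notes name BWA and hg19. Per the file headers, the authors trimmed reads, removed duplicates and ran MACS on LSD2 with input as control. Its settings were a read and fragment length of 120 bp, an effective genome of 2700 Mb, a p-value limit of 1e-05 and an enrichment factor of 32. No label or header gives a version. The deposited values, per the file headers, are start and end positions in bases, with no score.

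The 414095 lines were reduced to 370863 distinct intervals, none overlapping and 21 touching the next. Width is end minus start, and starts are printed counted from 1. Windows hold peaks by midpoint. Searched sequence came to 2862 Mb. Python 3.11.15, pandas 2.3.3 and scipy 1.17.1 were used, and neighbour shares and pair densities were tested on simulated data. The width limits, the regions followed and the lists were chosen with earlier results of these data known. The text names the 10 windows with most wide peaks, the 10 longest successions, the 5 widest and 5 most often listed members, and the 3 chromosomes at each end of the wide share. Gene and base content were not run, for want of an hg19 annotation or sequence here.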

Additional observations from a re-analysis of the deposited data

How the results depend on the processing

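All values are shares in percent, and an alternative is said to move one when it leaves the 95% Wilson interval. Of 41 alternative values, 22 stayed inside and 19 moved, and all alternatives were planned. Some of these outcomes were fixed in advance, so the tally does not measure robustness. A lower limit of 500 bp cannot change the narrow shares in the fullest windows or on repeated lines, which counted as inside. It must lower the wide share of the list and of each chromosome. With a lower limit of 500 bp, which leaves 12159 members by construction, wide peaks were 3.28% of the list in place of 7.79% and 5.66% of chromosome 17 in place of 12.1%. The fullest 10% of windows then held 37.8% of them in place of 31.1%, 8.26% were followed by another member in place of 13.0%, and 13.6% were repeated in place of 12.4%. Merging intervals up to 100 bp apart gave a share of 8.14% of the list and 30.4% in the fullest windows, and counting every line gave 7.98% of the list. Windows of 250 kb gave 40.1% in the fullest 10%, and leaving out chromosome 14 gave 30.3%. Narrow peaks also rose in windows of 250 kb, from 15.0% to 17.1%. Sparser counts by themselves raise such a share, so 37.8% and 40.1% cannot be read as stronger concentration. The spread beyond counting noise was not computed for these alternatives. The ratio of wide followers after wide to those after narrow peaks was 1.99, and 1.91 to 3.18 under its alternatives. The ratio of repeated shares, wide to narrow, was 1.29, and 1.28 to 1.41. Chromosome 17 stood at 1.51 to 1.73 times the share over the genome. Alternatives for gene and base content were left out together with those results. No paired analysis was possible because there was 1 library each of ChIP and input. Depth is unknown, so a width cannot be separated from the number of reads behind it.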
